A study of Mus musculus with 8 samples.

Results

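The genes described here are the mitosis and spindle genes, 57 listed genes whose products drive a cell from mitotic entry through chromosome segregation to cytokinesis. A gene was measured where a probe set was annotated with its symbol and no other, and where a gene had several such probe sets the brightest on average was taken. Of the 57 genes, 56 were measured this way, among 19938 genes with 21789 such probe sets on the array, and Ccnb1 is not analysed here. The genes were grouped by their role in mitosis, with 7 genes of chromosome structure, 7 of mitotic entry, 8 of the spindle checkpoint and anaphase, 9 of the kinetochore and centromere, 4 of the chromosomal passenger complex, 14 spindle motors and assembly factors, and 7 of the central spindle and cytokinesis.

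Transcripts were measured in adipose precursors (APs), the cells of white adipose tissue that can divide and become adipocytes. Cells carrying CD45 or CD31 were first removed with beads, and cells carrying the surface protein Sca-1 were then pulled down. They came from inguinal subcutaneous (scWAT, giving scAPs) or perigonadal visceral (viWAT, giving viAPs) fat of male C57BL/6J mice aged 7 to 8 weeks. All mice were wild type, and were fed a standard diet (SD) or a high-fat diet (HFD) for 3 days. The 8 arrays were SD scAPs (replicates 1 and 2), SD viAPs (3 and 4), HFD viAPs (5 and 6) and HFD scAPs (7 and 8), with RNA of 3 mice pooled on each array. The p-values rest on the spread between the 2 pools of a group, taken over all 4 groups and moderated across probe sets. They do not measure the spread between single mice.

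In a dividing cell, cyclin-dependent kinase activity and Polo and Aurora kinases trigger mitotic entry, condensins compact the chromosomes, and kinetochores couple them to spindle microtubules. The spindle checkpoint holds back the anaphase-promoting complex until every kinetochore is attached, after which separase cuts cohesin and the central spindle directs cytokinesis. Transcripts of these genes are made mainly in G2 and M phase, through the MuvB complex with B-Myb and FOXM1, and are repressed in resting cells. Their promoters often hold a cell cycle genes homology region (CHR) near the transcription start together with CCAAT boxes, which bind NF-Y. Precursors in adult fat are mostly at rest, and division of visceral precursors is an early step in the growth of that depot on a rich diet.

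The promoters of 6 members show these letters, and are printed because the members they belong to had the largest changes in viAPs among those with a CHR in the 100 bases before the start. CHR was searched as TTTGAA or TTTAAA and CCAAT as CCAAT, each on both strands, so that TTCAAA and ATTGG are the same letters read on the other strand. The sequences are the 150 bases before the gene start from RefSeq (GRCm38.p6), 5′ to 3′ on the gene's strand, with CHR and CCAAT letters in capitals. They lie at chr7:135716380-135716529 (minus strand) for Mki67, chr7:80294326-80294475 (plus strand) for Prc1, chr11:99024190-99024339 (minus strand) for Top2a, chr19:37376232-37376381 (plus strand) for Kif11, chr7:122159285-122159434 (plus strand) for Plk1 and chr11:106999526-106999675 (minus strand) for Kpna2.
Mki67: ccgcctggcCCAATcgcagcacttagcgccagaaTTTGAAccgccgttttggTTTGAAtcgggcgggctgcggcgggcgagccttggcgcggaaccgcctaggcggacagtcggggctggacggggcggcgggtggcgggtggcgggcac
Prc1: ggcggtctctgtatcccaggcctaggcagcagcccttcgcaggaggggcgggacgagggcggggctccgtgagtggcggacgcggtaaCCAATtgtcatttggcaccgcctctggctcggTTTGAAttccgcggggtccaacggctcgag
Top2a: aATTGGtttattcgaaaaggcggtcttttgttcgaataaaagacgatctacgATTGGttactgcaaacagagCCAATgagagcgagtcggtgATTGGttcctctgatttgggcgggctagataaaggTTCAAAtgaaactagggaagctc
Kif11: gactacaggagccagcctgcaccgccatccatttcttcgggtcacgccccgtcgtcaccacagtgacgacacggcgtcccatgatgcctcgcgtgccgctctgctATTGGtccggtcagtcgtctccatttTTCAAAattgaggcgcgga
Plk1: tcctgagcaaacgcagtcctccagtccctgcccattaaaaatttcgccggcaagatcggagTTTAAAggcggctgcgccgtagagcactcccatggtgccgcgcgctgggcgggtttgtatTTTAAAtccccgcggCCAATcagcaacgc
Kpna2: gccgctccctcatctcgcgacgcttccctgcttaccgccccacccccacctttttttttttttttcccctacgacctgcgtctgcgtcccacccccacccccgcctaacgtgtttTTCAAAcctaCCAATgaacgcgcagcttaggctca

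The first printed letter of the CHR lay 30 bases before the start in Prc1, 23 in Top2a, 19 in Kif11 and 35 in Kpna2, while Mki67 held a pair at 116 and 98 bases and Plk1 a pair at 89 and 29. Each of the 6 stretches also held at least 1 CCAAT, and Top2a held 4. Promoter entries were found for 46 of the 56 measured members, as 50 windows of 250 bases before to 50 after the start. CHR letters were in 39 of the 50 windows (78%), against 27.6% of all 32851 windows and 25.0% of the 21263 windows of protein-coding genes. Within the 100 bases before the start the shares were 30% of member windows and 9.71% of all windows. CCAAT was in 38 member windows (76%), against 37.4% of all windows. CHR letters were in 30 of the 37 windows (81.1%) of members that rose in viAPs and in 9 of the 13 (69.2%) of members that were not called. Restricted to the 100 bases before the start, these shares were 29.7% and 30.8%. CCAAT was in 75.7% and 76.9% of the same windows. These counts are descriptions of letters with no test, and a match is not a measured binding site.

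Most members were dim. Only 4 of the 56 (Smc4, Ccnb2, Pttg1 and Kpna2) exceeded a log2 intensity of 7, the level floor of the study's own filter, on at least 3 arrays, and 34 stayed at or under it on every array, so no filter on level was used. The arrays were checked against their labels before the comparisons. The precursor markers Pdgfra (log2 11.01 to 11.56) and Cd34 (11.38 to 12.37) were bright on all 8 arrays, and 12 of 13 precursor markers were above 7 on at least 3 arrays, while Ly6a, which encodes Sca-1, is not analysed here. None of 23 leukocyte markers was above 7 on 3 arrays, their mean lying between 4.96 and 5.26 on every array, and 0 were called between HFD and SD in viAPs or scAPs. In viAPs the 23 leaned lower, with a median change of -0.24. Both HFD viAP arrays lay below both SD viAP arrays for 14 of them and above for 0, where 28.9% of all probe sets lay above. The library labelled SD viAP replicate 4 went against its depot label: Tbx15, a subcutaneous marker, was 9.77 there and 4.70 on replicate 3, while the visceral markers Tcf21 (5.32 and 9.61) and Wt1 (5.98 and 8.71) were low. SD scAP arrays read 9.34 and 9.67 for Tbx15. The counts of members that rest on this library are therefore given with and without it. In HFD scAPs, 11 of 20 endothelial markers were higher than in SD scAPs, where 1.17% of all probe sets were called in either direction. The mean of the 20 was 7.13 and 7.19 against 6.27 and 6.31, while on the viAP arrays it lay between 6.03 and 6.29. Between HFD and SD viAPs, 2 of the 20 endothelial markers were called higher (Tek and Eng), near the 8.45% of all probe sets called higher. The 20 leaned lower, with a median change of -0.27. Both HFD viAP arrays lay below both SD viAP arrays for 10 of them and above for 3. Of 13 mature adipocyte markers 3 were lower (Plin1, Plin4 and Retn), where 1.95% of all probe sets were. Of 12 pericyte and smooth muscle markers, 2 were higher (Myh11 and Tagln) and 2 lower (Kcnj8 and Abcc9). Also higher were 3 of 13 precursor markers (Pdgfrb, Itgb1 and Thy1). None of 11 mesothelial markers was called, nor any of the 4 erythroid markers that were measured of 12 listed. Without SD viAP replicate 4 only Itgb1 and Thy1 remained called of these in viAPs, and 3 of the 20 endothelial markers in scAPs. The paper's own list for scAPs holds the globin genes Hba-a2 and Hbb-bs as higher on HFD. The part of these differences in the results below was not tested.

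In viAPs, the mitosis and spindle genes were higher after 3 days of HFD. Of the 56 members, 43 rose (76.8%), where 8.45% of all 21789 probe sets rose, and 0 fell, where 1.95% of all probe sets fell. The 4 with the largest change were Mki67, which coats mitotic chromosomes (4.96-fold), the spindle midzone bundler Prc1 (4.74-fold), the DNA topoisomerase Top2a (4.49-fold) and the cytokinetic exchange factor Ect2 (4.45-fold). At least 2-fold rises were called for 28 members (50%), against 2.2% of all probe sets. Calls are at an adjusted p under 0.05, from limma with Benjamini-Hochberg adjustment over all 21789 probe sets. Of all probe sets called, 81.3% were higher. After centring each array on its median this share was 94.6%, and 47 members and 14.4% of all probe sets rose. After quantile normalization it was 76.9%, and 42 members and 3.83% of all probe sets rose. In a pool of cells, more dividing cells and more RNA per cell cannot be told apart.

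The median change over the 56 members was 1.01 on the log2 scale, against -0.05 over all probe sets, and single members ran from -0.07 (Espl1) to 2.31 (Mki67). The difference was positive for 55 members, against 43.6% of all probe sets, and 50 were at an unadjusted p under 0.05. Counts at an unadjusted p, here and below, have no share of all probe sets beside them. Both HFD viAP arrays lay above both SD viAP arrays for 52 members, an order met by 28.9% of all probe sets. They lay above all 6 other arrays for 51 members, against 10.5% of all probe sets, and the exceptions were Cenpa, Cenpk, Ndc80, Ube2c and Espl1. The median member level was 6.78 and 6.59 on the HFD viAP arrays and between 5.32 and 5.85 on the other 6, so the groups did not overlap. In every group the lower-numbered array was the higher for most members: replicate 1 over 2 for 41 members (median 0.22), 3 over 4 for 39 (0.18), 5 over 6 for 47 (0.24) and 7 over 8 for 42 (0.19), where the median over all probe sets was 0 in each pair.

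The calls depended on single arrays, while the sizes moved less. Without SD viAP replicate 4, 54 members were still higher on HFD, with a median change of 1.01, and 11 were called, against 0.909% of all probe sets: Prc1, Anln, Kif23, Mki67, Top2a, Nuf2, Ccnb2, Plk1, Mad2l1, Hmmr and Kif2c. All 11 were at least 2-fold higher, a call made for 0.785% of all probe sets. Both HFD viAP arrays lay above the remaining SD viAP array for 53 members (36.6% of all probe sets) and above all 5 other arrays for 51 (10.8%). Leaving out HFD viAP replicate 5 left 0 calls among the members and among all probe sets, with the smallest adjusted p among the members at 0.103, a median change of 0.91 and 45 members at an unadjusted p under 0.05. Leaving out replicate 6 left 1 call (Mki67, adjusted p = 0.0469), a median change of 1.22 and 46 members at an unadjusted p under 0.05. A group reduced to a single array is assumed in these fits to vary like the others.

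**Figure D1:**
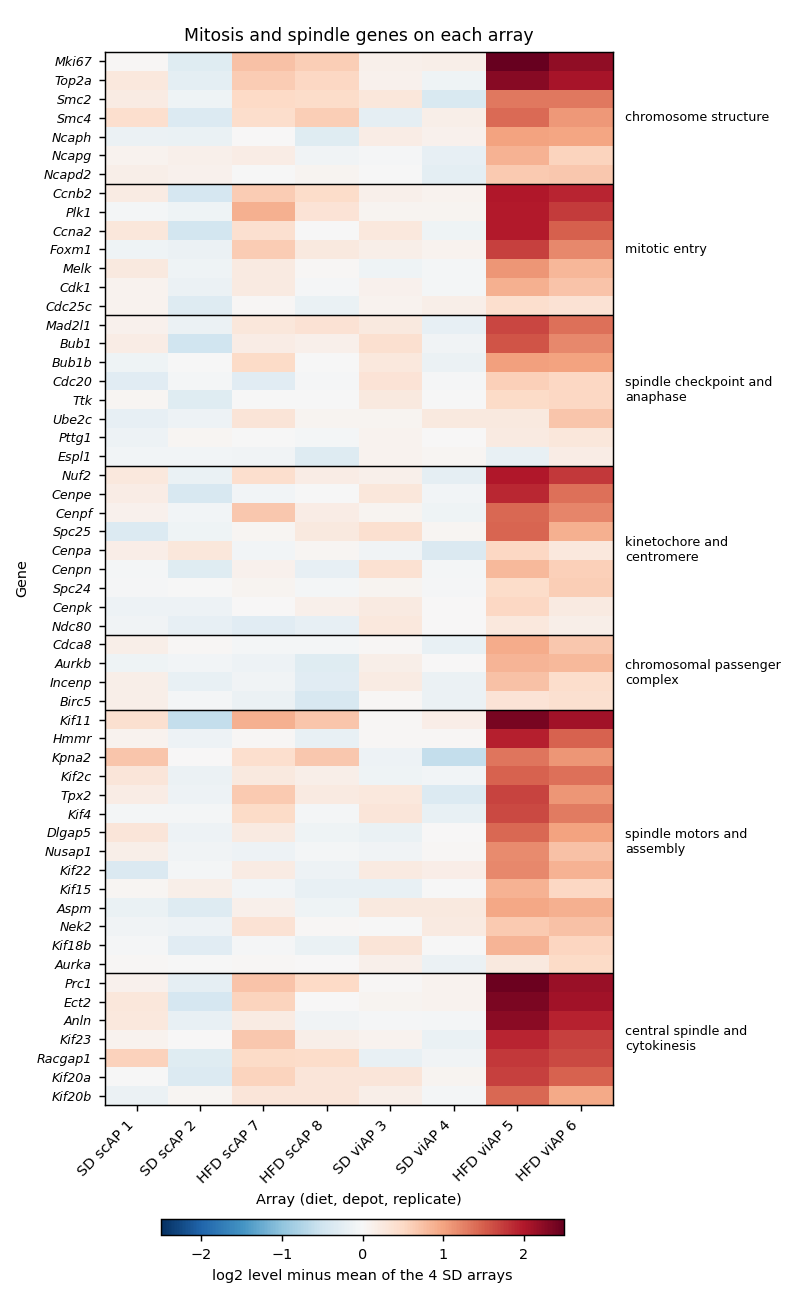
Colour gives each member's log2 level minus its mean over the 4 SD arrays, with the 56 members as rows grouped by role and the 8 arrays as columns. The HFD viAP arrays stand out in every role, with a median member level of 6.78 and 6.59 against 5.32 to 5.85 on the other 6 arrays, while Ndc80, Pttg1 and Espl1 stay pale.

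All 7 genes of chromosome structure rose in viAPs, 4 of them at least 2-fold, with changes from 0.79 to 2.31. Mki67, whose product Ki-67 keeps mitotic chromosomes apart and marks cycling cells, had log2 levels of 6.04 and 5.70 in SD scAPs, 6.74 and 6.61 in HFD scAPs, 6.13 and 6.15 in SD viAPs and 8.68 and 8.22 in HFD viAPs. Both HFD viAP arrays lay above the other 6, and the HFD scAP arrays above both SD groups. The viAP change was 2.31 (SE 0.18, adjusted p = 0.00251). Top2a, which untangles sister DNA, had levels of 6.09 and 5.58 in SD scAPs, 6.48 and 6.36 in HFD scAPs, 5.93 and 5.73 in SD viAPs and 8.10 and 7.89 in HFD viAPs, and its change was 2.17 (SE 0.18, adjusted p = 0.00251). Its HFD viAP arrays were the highest and its HFD scAP arrays the next highest, and a second Top2a probe set at a log2 level of 3.00 to 3.32 on all arrays had an adjusted p of 1. Smc2, a core subunit of both condensins, had levels of 6.00 and 5.70 in SD scAPs, 6.30 and 6.27 in HFD scAPs, 6.09 and 5.43 in SD viAPs and 7.13 and 7.12 in HFD viAPs. Its change of 1.37 (SE 0.21, adjusted p = 0.00985) came with SD viAP arrays that differed more from each other than the HFD viAP arrays did. The smallest change was that of Ncapd2, a regulatory subunit of condensin I, at 6.73 and 6.69 in SD scAPs, 6.57 and 6.66 in HFD scAPs, 6.57 and 6.34 in SD viAPs and 7.24 and 7.26 in HFD viAPs, which gave 0.79 (SE 0.13, adjusted p = 0.0118). Ncapd2 was thus higher in HFD viAPs than on any other array. Smc4, Ncaph and Ncapg, the other condensin subunits listed, changed by 1.29, 0.84 and 0.82. Mki67 and Top2a remained called without SD viAP replicate 4 (adjusted p = 0.0354 and 0.0389), where the others had adjusted p-values up to 0.0992.

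Of the 7 genes of mitotic entry, 6 rose in viAPs and 5 of them at least 2-fold. Ccnb2, a B-type cyclin that activates CDK1, had log2 levels of 6.63 and 6.00 in SD scAPs, 7.04 and 6.87 in HFD scAPs, 6.54 and 6.51 in SD viAPs and 8.42 and 8.32 in HFD viAPs, and its change was 1.85 (SE 0.20, adjusted p = 0.00383). Plk1, the Polo kinase that acts from entry to cytokinesis, had levels of 5.58 and 5.52 in SD scAPs, 6.52 and 5.98 in HFD scAPs, 5.70 and 5.70 in SD viAPs and 7.61 and 7.38 in HFD viAPs, with a change of 1.80 (SE 0.18, adjusted p = 0.00357). For both genes the HFD viAP arrays lay well above the others, and the HFD scAP arrays came next. Ccna2, the cyclin of S phase and early mitosis, stood at 6.36 and 5.61 in SD scAPs, 6.46 and 6.07 in HFD scAPs, 6.34 and 5.95 in SD viAPs and 8.05 and 7.57 in HFD viAPs, and its change was 1.66 (SE 0.28, adjusted p = 0.0119). Foxm1, the transcription factor that drives many of the genes listed here, had levels of 5.36 and 5.32 in SD scAPs, 6.09 and 5.70 in HFD scAPs, 5.61 and 5.55 in SD viAPs and 7.17 and 6.67 in HFD viAPs, with a change of 1.34 (SE 0.19, adjusted p = 0.00834). The groups of Foxm1 did not overlap between HFD viAPs and any other group. Melk, a kinase of dividing cells, and Cdk1, the kinase that starts mitosis, changed by 1.05 and 0.77. Cdc25c, a phosphatase that activates CDK1, had the smallest change, with levels of 4.58 and 4.17 in SD scAPs, 4.52 and 4.32 in HFD scAPs, 4.58 and 4.64 in SD viAPs and 4.91 and 4.86 in HFD viAPs. Its difference of 0.27 (SE 0.16, adjusted p = 0.299) was not called, although both HFD viAP arrays were the highest of the 8. Ccnb2 and Plk1 remained called without SD viAP replicate 4 (adjusted p = 0.0442 and 0.039), while Foxm1 and Ccna2 had adjusted p-values of 0.0643 and 0.0926.

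**Figure D2:**
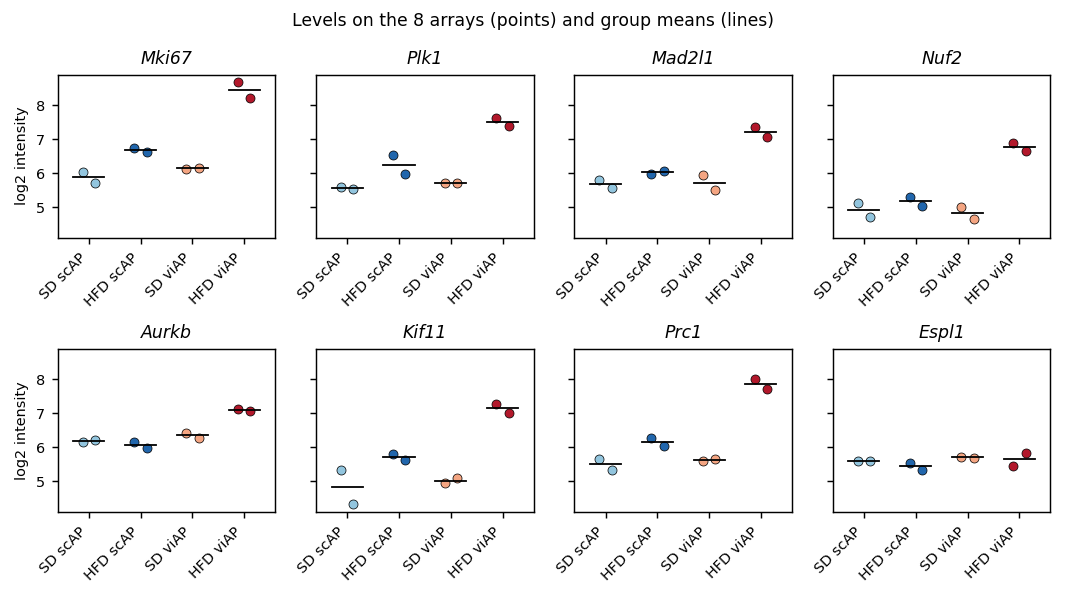
Each panel shows the log2 intensity of a member on the 8 arrays (points) with the mean of each group's 2 arrays (lines). Mki67 reads 8.68 and 8.22 in HFD viAPs and at most 6.74 elsewhere, while for Espl1 the HFD viAP arrays (5.46 and 5.83) lie on either side of the SD viAP arrays.

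The spindle checkpoint and anaphase genes had the smallest share of calls of any role in viAPs, 3 of 8, and a median change of 0.38. Mad2l1, the checkpoint protein MAD2 that inhibits CDC20, had log2 levels of 5.81 and 5.55 in SD scAPs, 5.98 and 6.07 in HFD scAPs, 5.93 and 5.49 in SD viAPs and 7.37 and 7.07 in HFD viAPs, and rose by 1.50 (SE 0.18, adjusted p = 0.00565). Bub1, a checkpoint kinase of the kinetochore, had levels of 4.58 and 3.91 in SD scAPs, 4.58 and 4.52 in HFD scAPs, 4.81 and 4.32 in SD viAPs and 5.98 and 5.61 in HFD viAPs, with a change of 1.23 (SE 0.25, adjusted p = 0.0212). Bub1b, which encodes BUBR1 of the same checkpoint, stood at 4.91 and 5.00 in SD scAPs, 5.49 and 5.00 in HFD scAPs, 5.29 and 4.86 in SD viAPs and 6.04 and 6.02 in HFD viAPs, and its change was 0.96 (SE 0.20, adjusted p = 0.022). All 3 genes were higher on both HFD viAP arrays than on any other. Their partners Ttk, the MPS1 kinase, and Cdc20, the activator of the anaphase-promoting complex, had differences of 0.36 (SE 0.16, adjusted p = 0.167) and 0.40 (SE 0.17, adjusted p = 0.161). Differences were smaller for Ube2c, the ubiquitin-conjugating enzyme of that complex (0.31), and for Pttg1, the securin that restrains separase (0.21), and neither was called. Espl1, which encodes separase, had levels of 5.58 and 5.58 in SD scAPs, 5.55 and 5.32 in HFD scAPs, 5.73 and 5.70 in SD viAPs and 5.46 and 5.83 in HFD viAPs, and a difference of -0.07 (SE 0.16, adjusted p = 0.796). Its HFD viAP arrays lay on either side of its SD viAP arrays, and it was the only member whose highest group mean was not in HFD viAPs. The sign for Espl1 turned positive with median centring or quantile normalization of the arrays (0.074 and 0.072) and without HFD viAP replicate 5 (0.12). Mad2l1 remained called without SD viAP replicate 4 (adjusted p = 0.0466) and Bub1 and Bub1b were not (0.132 and 0.123). Leaving out HFD scAP replicate 7 or replicate 8 left the change of Bub1 at 1.23, but its call was lost. Members of other roles also lost the call in viAPs without replicate 7, with their changes unmoved: Smc4, Spc25, Cenpa, Spc24, Tpx2, Kif22, Kif15 and Nek2.

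Of the 9 kinetochore and centromere genes, 6 rose in viAPs, 3 at least 2-fold. Nuf2, a subunit of the NDC80 complex that binds microtubules, had log2 levels of 5.13 and 4.70 in SD scAPs, 5.29 and 5.04 in HFD scAPs, 5.00 and 4.64 in SD viAPs and 6.87 and 6.64 in HFD viAPs, and its change was 1.94 (SE 0.19, adjusted p = 0.00356). Cenpe, a kinetochore motor that moves chromosomes to the spindle equator, had levels of 4.91 and 4.32 in SD scAPs, 4.64 and 4.70 in HFD scAPs, 5.00 and 4.64 in SD viAPs and 6.60 and 6.09 in HFD viAPs, with a change of 1.52 (SE 0.24, adjusted p = 0.0102). The HFD viAP arrays were clear of the others for both. Cenpf, a large protein of the outer kinetochore, stood at 5.17 and 5.00 in SD scAPs, 5.73 and 5.25 in HFD scAPs, 5.13 and 4.95 in SD viAPs and 6.51 and 6.29 in HFD viAPs, and its change was 1.35 (SE 0.18, adjusted p = 0.00693). Spc25 and Spc24, the remaining partners of Nuf2 within the NDC80 complex besides Ndc80, changed by 0.95 and 0.52, and Cenpa, the histone H3 variant of centromeres, by 0.61. Ndc80 itself had levels of 5.32 and 5.21 in SD scAPs, 5.13 and 5.21 in HFD scAPs, 5.67 and 5.43 in SD viAPs and 5.67 and 5.55 in HFD viAPs. Its arrays overlapped between the diets in viAPs, and the difference of 0.06 (SE 0.14, adjusted p = 0.779) took the opposite sign (-0.059) without SD viAP replicate 4. Cenpn and Cenpk, subunits of the constitutive centromere network, had differences of 0.53 and 0.25 that were not called. When that array was left out Nuf2 remained called (adjusted p = 0.0389), and Cenpe and Cenpf had adjusted p-values of 0.0793 and 0.0578.

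In the chromosomal passenger complex, which corrects wrong attachments and later moves to the midzone, 2 of 4 genes rose and 0 reached 2-fold. Cdca8, which encodes borealin, had log2 levels of 4.64 and 4.52 in SD scAPs, 4.46 and 4.46 in HFD scAPs, 4.52 and 4.32 in SD viAPs and 5.43 and 5.17 in HFD viAPs, and its change was 0.88 (SE 0.14, adjusted p = 0.0115). Aurkb, the kinase of the complex, had levels of 6.17 and 6.21 in SD scAPs, 6.15 and 5.98 in HFD scAPs, 6.43 and 6.29 in SD viAPs and 7.12 and 7.08 in HFD viAPs, with a change of 0.74 (SE 0.13, adjusted p = 0.0131). Both were higher on the HFD viAP arrays than on all others. Incenp, the scaffold, stood at 5.75 and 5.43 in SD scAPs, 5.52 and 5.32 in HFD scAPs, 5.81 and 5.46 in SD viAPs and 6.34 and 6.04 in HFD viAPs, and its difference was 0.56 (SE 0.18, adjusted p = 0.0894). Birc5, which encodes survivin, had levels of 5.25 and 5.04 in SD scAPs, 4.95 and 4.70 in HFD scAPs, 5.13 and 4.95 in SD viAPs and 5.43 and 5.49 in HFD viAPs and a difference of 0.42 (SE 0.15, adjusted p = 0.104). Neither was called, although both HFD viAP arrays were again the highest of the 8 for each. After centring each array on its median the adjusted p fell to 0.0396 for Incenp and 0.0393 for Birc5. Cdca8 and Aurkb lost the call without SD viAP replicate 4, with adjusted p-values of 0.0717 and 0.072. In scAPs the differences of all 4 were negative, from -0.32 to -0.12, and none was called.

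Among the 14 spindle motors and assembly factors, 12 rose in viAPs, 7 at least 2-fold, and both HFD viAP arrays were above the other 6 for all 14. Kif11, the motor that pushes spindle poles apart, had log2 levels of 5.32 and 4.32 in SD scAPs, 5.81 and 5.61 in HFD scAPs, 4.95 and 5.09 in SD viAPs and 7.29 and 7.02 in HFD viAPs. Its change was 2.13 (SE 0.28, adjusted p = 0.00681), with SD scAP arrays that lay farther apart than those of any other group of this gene. Hmmr, a microtubule-associated protein of the spindle poles, had levels of 4.86 and 4.64 in SD scAPs, 4.81 and 4.58 in HFD scAPs, 4.81 and 4.81 in SD viAPs and 6.73 and 6.25 in HFD viAPs, and its change was 1.68 (SE 0.18, adjusted p = 0.00383). Kpna2, an importin that binds spindle assembly factors, stood at 7.29 and 6.61 in SD scAPs, 7.01 and 7.28 in HFD scAPs, 6.48 and 6.00 in SD viAPs and 7.94 and 7.70 in HFD viAPs, and its change was 1.58 (SE 0.25, adjusted p = 0.0102). Kpna2 has 3 probe sets annotated alike, with changes of 1.36 to 1.58, which may share signal with near-identical copies, so its level is uncertain. The microtubule depolymerase Kif2c, the Aurora A activator Tpx2, the chromokinesin Kif4 and the kinetochore fibre protein Dlgap5 rose by 1.50, 1.43, 1.42 and 1.30. The microtubule binders Nusap1 and Aspm, the kinesins Kif22 and Kif15 and the centrosomal kinase Nek2 rose by less than 2-fold, with changes of 0.58 to 0.97. Aurka, the kinase of the spindle poles, had levels of 6.09 and 6.04 in SD scAPs, 6.09 and 6.07 in HFD scAPs, 6.19 and 5.91 in SD viAPs and 6.30 and 6.54 in HFD viAPs, and its difference of 0.37 (SE 0.15, adjusted p = 0.134) was not called, nor was that of Kif18b (0.53). Without SD viAP replicate 4, Hmmr and Kif2c remained called (adjusted p = 0.0419 and 0.0402), while Kif11 and Kpna2 had adjusted p-values of 0.0554 and 0.0778.

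The genes of the central spindle and cytokinesis had the largest median change of the 7 roles, 1.84, and all 7 rose at least 2-fold. Prc1, which bundles antiparallel microtubules at the midzone, had log2 levels of 5.67 and 5.32 in SD scAPs, 6.27 and 6.04 in HFD scAPs, 5.58 and 5.64 in SD viAPs and 8.00 and 7.72 in HFD viAPs, and its change was 2.25 (SE 0.17, adjusted p = 0.00251). Ect2, the exchange factor that activates RhoA at the equator, had levels of 6.34 and 5.64 in SD scAPs, 6.61 and 6.07 in HFD scAPs, 6.13 and 6.15 in SD viAPs and 8.42 and 8.17 in HFD viAPs, with a change of 2.15 (SE 0.25, adjusted p = 0.00485). Anln, the scaffold anillin of the contractile ring, stood at 6.43 and 5.98 in SD scAPs, 6.36 and 6.07 in HFD scAPs, 6.13 and 6.11 in SD viAPs and 8.42 and 8.09 in HFD viAPs, with a change of 2.14 (SE 0.19, adjusted p = 0.00251). The HFD viAP arrays were far above the rest for these 3, and Anln in HFD scAPs lay within its SD scAP values. Kif23 and Racgap1, the 2 parts of centralspindlin, rose by 1.84 and 1.84, and Kif20a, which carries the passenger complex to the midzone, by 1.41. Kif20b, a kinesin of late cytokinesis, had the smallest change, with levels of 3.81 and 4.00 in SD scAPs, 4.25 and 4.25 in HFD scAPs, 4.09 and 3.91 in SD viAPs and 5.39 and 4.91 in HFD viAPs and a change of 1.15 (SE 0.18, adjusted p = 0.00974). Without SD viAP replicate 4, Prc1, Anln and Kif23 remained called (adjusted p = 0.0354, 0.0389 and 0.0391), and Ect2 and Kif20b had adjusted p-values of 0.0521 and 0.072.

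In scAPs, 0 of the 56 members were called after HFD, where 1.17% of all probe sets were. The median difference was 0.19, and 43 members were positive, against 48.4% of all probe sets. An unadjusted p under 0.05 was met by 8, all of them higher on HFD: Kif11 (0.89), Mki67 (0.81), Plk1 (0.70), Prc1 (0.66), Ccnb2 (0.64), Kif20a (0.61), Top2a (0.58) and Foxm1 (0.55). Without limma's shared variance 4 had an unadjusted p under 0.05 and 0 were called. The smallest adjusted p was that of Mki67, with a difference of 0.81 (SE 0.18, adjusted p = 0.0724). Both HFD scAP arrays lay above both SD scAP arrays for 20 members, 35.7%, against 21.7% of all probe sets. After centring each array on its median, Mki67, Plk1 and Prc1 were called (adjusted p = 0.0377, 0.0444 and 0.0499). The median difference moved with each scAP array, and was 0.25 without SD scAP replicate 1, 0.0082 without replicate 2, 0.077 without HFD scAP replicate 7 and 0.27 without replicate 8.

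**Figure D3:**
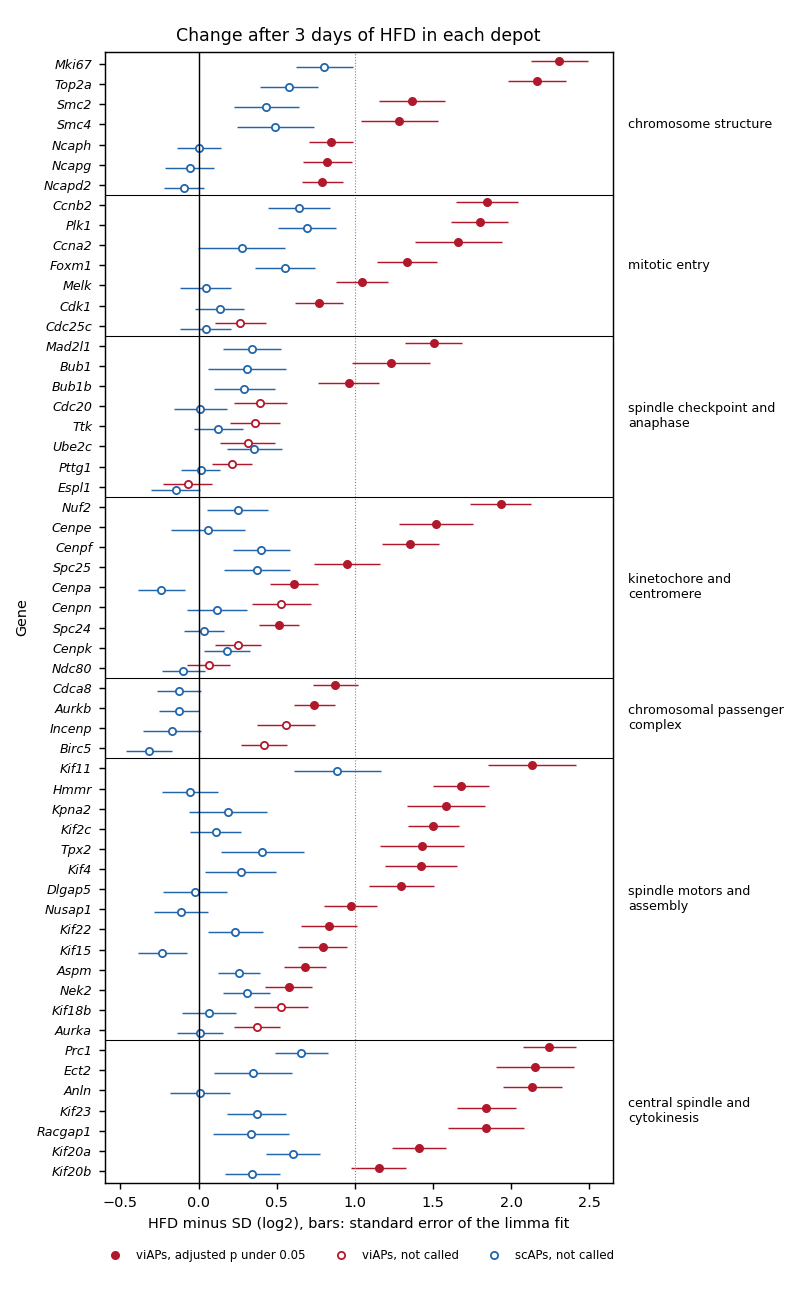
Points give the HFD minus SD difference (log2) of each member in viAPs (red) and scAPs (blue), with bars for the standard error of the fit, filled where called, and a dotted line at 2-fold. In viAPs 43 of 56 points are filled and in scAPs 0.

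Whether the change differed between the depots was tested directly, as the viAP change minus the scAP change. This difference was positive for 55 of 56 members, against 47.6% of all probe sets, with a median of 0.88, and the exception was Ube2c (-0.04). In this test 0 members were called, where 0.00459% of all probe sets (1 of 21789) were, and 42 had an unadjusted p under 0.05 (33 without limma's shared variance, which called 0 members as well). The members with the largest differences were Anln (2.13, SE 0.27, adjusted p = 0.177), Ect2 (1.81, SE 0.35, adjusted p = 0.273) and Hmmr (1.74, SE 0.25, adjusted p = 0.186). For Anln and Hmmr, HFD and SD arrays overlapped in scAPs and were apart in viAPs. Without SD viAP replicate 4, the median was 0.78, 33 members were at an unadjusted p under 0.05 and the smallest adjusted p was 0.492.

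Between the depots under SD, 0 members were called, where 0% of all probe sets were. The SD viAP group includes replicate 4, whose depot markers read as subcutaneous. In this comparison 0 of 6 depot markers were called either, so the lack of calls cannot show that the depots were alike. The median difference, viAPs minus scAPs, was 0.10, with 35 members positive and 21 negative, where 52.3% of all probe sets were positive. Only Aspm (0.49), Cenpa (-0.45) and Kpna2 (-0.72) had an unadjusted p under 0.05, with adjusted p-values of 0.3, 0.349 and 0.357. Without SD viAP replicate 4, 42 members were positive and the median was 0.14. Leaving out SD viAP replicate 3 instead moved them the other way, to 30 positive members and a median of 0.02.

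Under HFD all 56 members were higher in viAPs than in scAPs, by a median of 0.91, where 46.7% of all probe sets were higher. Of the members 28 (50%) were called, where 1.07% of all probe sets were called higher in viAPs. These 28 had all risen in viAPs on HFD, and both comparisons share the HFD viAP arrays. The differences were largest for Anln (2.04, SE 0.19, adjusted p = 0.00708), Ect2 (1.95, SE 0.25, adjusted p = 0.0142), Hmmr (1.79, SE 0.18, adjusted p = 0.00767) and Mki67 (1.77, SE 0.18, adjusted p = 0.0086). By role, the called members were 6 of 7 in cytokinesis, 5 of 7 in mitotic entry, 9 of 14 among spindle factors, 3 of 7 in chromosome structure, 2 of 4 passenger genes, 2 of 9 at the kinetochore and 1 of 8 (Mad2l1) at the checkpoint and anaphase. Smc2, Cenpf, Bub1, Kpna2 and 11 other members that rose in viAPs did not pass in this comparison. In the same comparison 12 of 20 endothelial markers were lower in viAPs, with Pecam1 at -1.86, and 0 of 23 leukocyte markers were called. The median over the 20 endothelial markers was -1.10, against -0.007 over all probe sets, while the share of all probe sets called lower is not given here. The count of 28 fell in every fit that left out an array. No call remained without HFD viAP replicate 5 or 6 or without HFD scAP replicate 7 or 8. Shares of all probe sets called in those fits are not given here. The direction held for all 56 members without HFD viAP replicate 5 (median 0.78) and without replicate 6 (1.04).

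**Figure D4:**
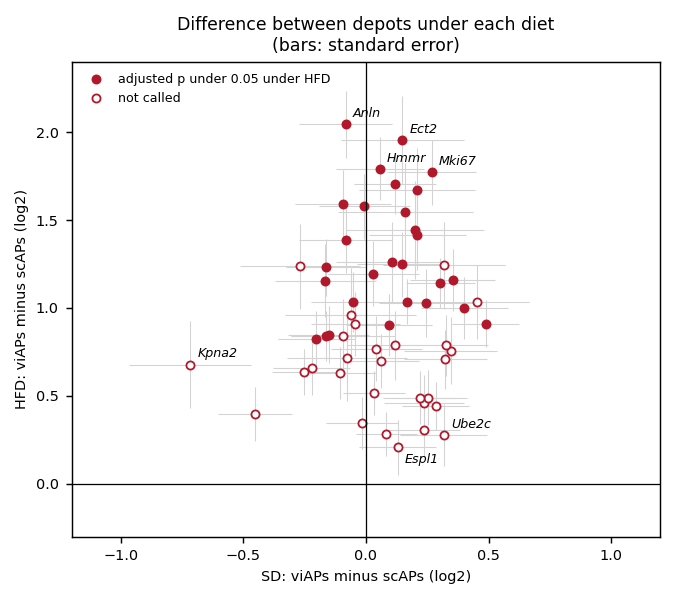
Each point is a member, with its viAP minus scAP difference (log2) under SD on the x axis and under HFD on the y axis, and bars for the standard error. All 56 points lie above 0 on the y axis, 28 of them called, and they lie on both sides of 0 on the x axis.

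Other genes of the pathway were counted in the same fit. Of 71 further mitotic genes measured, 31 rose in viAPs and 0 fell, with a median change of 0.53, and the largest called changes were those of Depdc1a (1.58), the kinase Mastl, which holds back the phosphatase opposing CDK1 (1.53), and Gas2l3 (1.49). Of 26 subunits and partners of the anaphase-promoting complex and cohesin, 9 rose and 0 fell, with a median of 0.42. Anapc1, the scaffold of that complex (1.09), Pds5a (1.06) and the cohesin loader Nipbl (1.05) led this list, of which 23 genes were above log2 7 on at least 3 arrays. In scAPs 1 gene of each list was called, Ube2s (0.62, adjusted p = 0.0483) and Nipbl (0.93, adjusted p = 0.0254). Of 22 regulators of mitotic transcription, 3 rose in viAPs: Rbl1 (0.99), Rb1 (0.69) and Nfyb (0.64). Rbl1 and Rb1 encode pocket proteins that repress cell cycle genes, and Nfyb a subunit of the CCAAT-binding factor. Of 39 genes of DNA replication, which act in S phase, 6 rose, led by Rrm1 (1.35), Uhrf1 (1.19) and Mcm6 (0.98), and the median change of this list was 0.23. These counts stand beside 8.45% of all probe sets. The same counts without SD viAP replicate 4, where 0.909% of all probe sets rose, were 5 of 71 (Gas2l3, Diaph3, Ckap2, Ncapg2 and Cks2), 2 of 26 (Rad21 and Nipbl), 0 of 22 and 0 of 39, with medians of 0.55, 0.28, 0.20 and 0.15, and Ube2s and Nipbl were no longer called in scAPs.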

How the data were processed

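RNA of 8 pools was hybridised to Affymetrix Mouse Gene 1.0 ST arrays. The authors normalized the arrays with RMA, and the submitters' processing notes also name Affymetrix Expression Console 1.1. The deposited intensity values are whole numbers on a linear scale, and how they were taken from the log2 values that RMA returns is not given in the sources used here. Their log2 was used. Of 35556 probe sets, 21789 carried exactly 1 symbol in the platform annotation, 1621 several and 12146 none, and only the first were used, without a filter on level because the members are dim. limma 3.58.1 (R 4.3.3) was fitted with 1 mean per group to all 8 arrays (lmFit, eBayes), with 4 residual and 4.58 prior degrees of freedom, and p-values were adjusted over all 21789 probe sets. The step was tested on simulated data. The contrasts were HFD minus SD in each depot, their difference, and viAPs minus scAPs under each diet. The study's filter (log2 above 7 on at least 3 arrays, and spread in the upper tercile) was run as an alternative, as were other scalings, an offset of 16, the arrays compared alone, and leaving out each array. Members were ranked within each role by the viAP change to choose those described on every array: Mki67, Foxm1, up to 3 with the largest change and the smallest. The members and lists were chosen with earlier results of these data known. Levels of different probe sets were not compared with each other, and the number of arrays limits the precision. Promoter windows came from RefSeq (GRCm38.p6).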

Additional observations from a re-analysis of the deposited data

How the results depend on the processing

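The counts of called members, the median changes and the 29 members described on every array were recomputed under each alternative. The count of 43 members that rose in viAPs was 0 with only the 4 viAP arrays in the fit and 1 without limma's shared variance. The study's filter on level kept 4 members, of which 3 were called, and with its filter on spread 3 of 3 were, which is no support for the members, since these filters keep genes that are bright or that vary. Leaving out each array gave between 0 and 42. In scAPs, 3 members were called after median centring in place of 0. The count of 28 higher in HFD viAPs than in HFD scAPs was 5 with only those 4 arrays, 17 with an offset of 16 added before log2, 1 under each filter, 0 without shared variance and between 0 and 23 when each array was left out. The median change in viAPs (1.01) was 0.73 with the offset, 1.44 for the 4 members past the level filter and 1.58 for the 3 past both (values set by that selection), and between 0.91 and 1.22 when each array was left out. In scAPs the median (0.19) was 0.49 past both filters, and between 0.0082 and 0.27 when each array was left out. Median centring moved every viAP change up by 0.14. The difference of Ndc80 became -0.059 without SD viAP replicate 4, and that of Espl1 became 0.074 under median centring, 0.072 under quantile normalization, and ran from -0.25 to 0.12 (without HFD viAP replicate 5) when each array was left out, with the cause not tested. Of the 29 members followed singly, 23 were called. With the offset, with an intensity trend and with the mean of all probe sets of a gene, all 29 kept their side of the threshold and their direction. With only 4 arrays all 23 lost the call, without shared variance 22 did. The fits with fewer arrays have fewer degrees of freedom. Counts of called members in this section have no share of all probe sets beside them. No paired analysis was run. Each array's label carries its own number, 1 to 8, so that groups have none in common, while the paper's tables number the arrays within each group from 1. The paper does not state whether arrays of equal number were handled together. No block for this order was fitted, so any shift that such arrays share stays in the spread between arrays of a group.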
